A study of Gallus gallus with 12 samples.

Results

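Gga-miR-17-5p, gga-miR-181a-5p, gga-miR-193a-3p, gga-miR-199-5p, gga-miR-148a-3p and gga-miR-22-3p (gga for Gallus gallus, left off from here on) are chicken microRNAs (miRNAs) found in many tissues and reported to act on the proliferation or differentiation of myoblasts, the precursor cells of muscle fibers. These 6 miRNAs were selected by name from the 38 miRNAs of the deposited table, for that reported role. Small RNAs were sequenced individually from the breast muscle of 6 pedigree male (PeM) broilers, a modern line selected for growth, and 6 Barred Plymouth Rock (BPR) chickens, an unselected breed. All birds were 8 weeks old by their labels, whereas the methods state that age as an upper limit. No bird was treated. The PeM birds were supplied by a breeding company and the BPR birds were kept at a university facility, so that breed and place of origin cannot be told apart. Abundance was given as RPM, the reads of a miRNA once all aligned reads of a bird are scaled to 1000000.

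A miRNA is cut from a hairpin precursor and pairs, mostly through its seed near the 5′ end, with messenger RNAs whose translation or stability it lowers. MiR-17-5p belongs to the miR-17-92 cluster, a single primary transcript with several miRNAs that is known in mammals for promoting cell cycle entry. MiR-181a-5p is known from mouse myoblasts, where it lowers the homeobox protein Hox-A11 during differentiation. MiR-148a-3p favours differentiation of mouse myoblasts through the kinase ROCK1, and miR-199-5p acts on WNT signaling in mammalian myoblasts. MiR-22-3p is known from mouse heart muscle, where it takes part in hypertrophy, and miR-193a-3p is known mainly as a growth-limiting miRNA of human cell lines. In the RefSeq gene table of the chicken, all 6 names matched a gene. MiR-17-5p (gene MIR17), miR-193a-3p (MIR193A), miR-148a-3p (MIR148A) and miR-22-3p (MIR22) matched 1 gene each. MiR-181a-5p (MIR181A1 and MIR181A2) and miR-199-5p (MIR199A2 and MIR199B1) matched 2 each, so that their reads cannot be assigned to either gene.

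The RPM values appeared to rest on few reads. Nearly all values of a bird (443 of 456 over the table) were whole multiples of the value of 1 read, and the smallest total that fits this step, taken as the number of aligned reads behind the RPM, ran from 3021 to 9120 reads in PeM and from 4784 to 12454 reads in BPR, with medians of 4134 in PeM and 6963.5 in BPR. These totals are far below the numbers of reads sequenced, and the reason is not given in the sources used here. If all reads of a bird shared a common factor, the true totals would be larger, the counting errors given here would be too large and the ratios to them too small. PeM bird 16 and BPR bird 3 were the deepest of their breeds. The difference in total reads between the breeds (exact two-sided permutation test, p = 0.0952) was not resolved with 6 birds each. Muscle identity was checked with miR-1a-3p, miR-133a-5p, miR-133c-3p and miR-206, which were present in all birds and together held 30.1% to 42.3% of the reads in PeM and 34.9% to 42.5% in BPR. MiR-126-3p of endothelium held 6.88% to 7.71% of the reads in PeM and 3.30% to 7.03% in BPR. Erythroid miR-451 and miR-16-5p together held 0.570% to 0.995% in PeM and 0.570% to 1.89% in BPR. Their means went opposite ways, which the sum hides. MiR-451 was at 2846 RPM (SD 388) in PeM and 4920 RPM (SD 5005) in BPR. Its highest BPR bird had 14861 RPM, and its medians were 2924 RPM in PeM and 3258 RPM in BPR. MiR-16-5p was at 5268 RPM (SD 1524) in PeM and 4105 RPM (SD 674) in BPR. Neither difference was resolved (exact two-sided permutation tests, p = 0.593 and 0.126). MiR-146b-5p and miR-146c-5p of immune cells held 1.44% to 2.87% in PeM and 0.771% to 1.65% in BPR. None of these 9 markers was at 0 in any bird. In whole muscle, a change in the share of a cell type and a change of the RNA within its cells cannot be told apart.

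The 6 miRNAs together held a median of 9.97% of the reads in PeM (9.57% to 14.5%) and 11.7% in BPR (10.4% to 13.2%). MiR-17-5p was the most abundant of them, at a mean of 55674 RPM over the 12 birds and rank 4 of the 38 miRNAs, and it ranked 3 or 4 in every bird. MiR-126-3p ranked next above it and let-7b next below. MiR-181a-5p followed at 28183 RPM and rank 6, between let-7b and miR-206. MiR-193a-3p was at 10840 RPM (rank 13, next to miR-222a above and miR-133c-3p below). MiR-199-5p and miR-148a-3p took the neighbouring ranks 18 and 19, at 7984 and 6754 RPM, with miR-26a-5p above them and miR-10b-5p below. MiR-22-3p was at 2351 RPM and rank 33, between miR-103-3p and miR-2954. These levels carry the ligation preference of the library kit for each miRNA, so the order is that of sequenced reads.

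Most steps of this order held in every bird. MiR-17-5p exceeded miR-181a-5p, miR-181a-5p exceeded miR-193a-3p and miR-148a-3p exceeded miR-22-3p in 12 of 12 birds. MiR-193a-3p exceeded miR-199-5p in 11 of 12 birds, with a median log2 ratio of 0.47. MiR-199-5p exceeded miR-148a-3p in only 7 of 12 birds, with log2 ratios from -0.76 to 1.12, so that these neighbours did not differ beyond the spread between birds. Ranks within a bird varied most for miR-22-3p (22 to 38) and miR-199-5p (13 to 29).

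**Figure D1:**
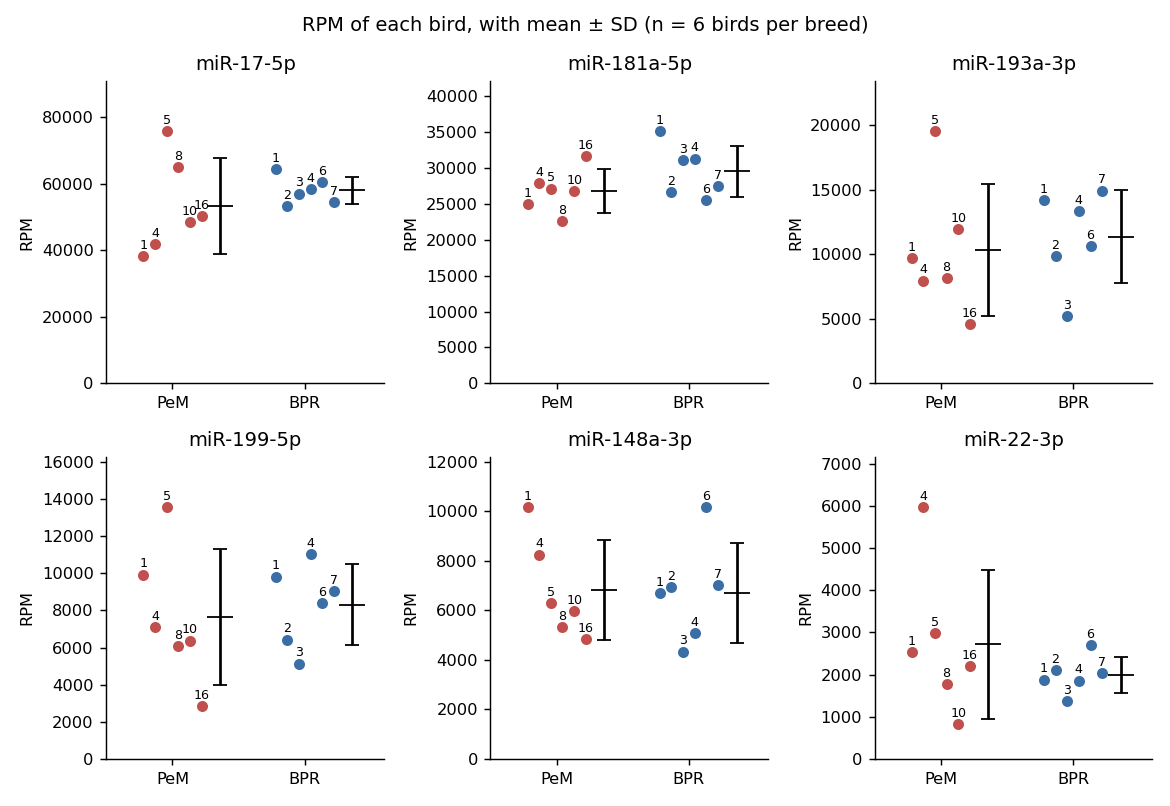
RPM (vertical axes, from 0) of the 6 miRNAs in each bird, with PeM birds in red left of BPR birds in blue, the bird number above each point, and bars for the mean ± SD of 6 birds. The ranges of PeM and BPR overlap in all 6 panels, and for miR-17-5p the BPR birds form a narrow band from 53232 to 64381 RPM with PeM birds on either side of it.

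PeM and BPR were compared to ask whether the breed selected for rapid growth carries other amounts of these miRNAs in its breast muscle. None of the 6 was differentially expressed (DE), by the thresholds of the study (unadjusted p under 0.05, change of over 1.2 times). The paper's list of DE miRNAs from the same birds holds none of the 6 either. The members were chosen with earlier results of these data known, so this count is not an independent finding. In limma, a linear model on log2(RPM) that moderates each variance towards those of all 38 miRNAs, unadjusted p ran from 0.33 to 0.914 and adjusted p from 0.627 to 0.965. The exact permutation test and limma-voom on the recovered reads gave 0 of 6 as well, and 0 of 6 had an unadjusted p under 0.05 in any of these. By the same thresholds 21.1% of the 38 miRNAs were DE in limma, and 13.2% had an adjusted p under 0.05. The ranges of the breeds overlapped for all 6 (2.63% of the 38 miRNAs had ranges apart).

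MiR-17-5p was at 38355, 41809, 48580, 50327, 64975 and 75803 RPM in PeM birds 1, 4, 10, 16, 8 and 5, from 147 to 459 reads. In BPR it was at 53232, 54609, 57090, 58452, 60475 and 64381 RPM in birds 2, 7, 3, 4, 6 and 1, from 296 to 711 reads. Thus no PeM bird fell inside the BPR range, 4 lying beneath it and 2 above it. Counting error alone (95% Wilson intervals) reached into that range for PeM birds 8 (57694 to 73103 RPM), 10 (42883 to 54990 RPM) and 16 (46028 to 55008 RPM). It did not for PeM birds 1, 4 and 5. The means were 53308 ± 14347 RPM in PeM and 58040 ± 4052 RPM in BPR (SD, n = 6 each). The log2 fold change was -0.16 (standard error 0.17, 95% interval -0.53 to 0.21, limma adjusted p = 0.659), which allows a fold of 0.692 to 1.15. It was -0.075 without PeM bird 1, -0.10 without PeM bird 4 and -0.27 without PeM bird 5, with no call in any of these. In 3 birds (PeM 16, BPR 6 and BPR 7) its value was slightly off a whole number of reads, which no other of the 6 miRNAs showed.

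MiR-20a-5p comes from the same cluster as miR-17-5p and belongs to the same seed family. In the gene table, MIR17 has 5 miRNA genes within 20000 bases (MIR18A, MIR19A, MIR20A, MIR19B1 and MIR92A1), and of their products only miR-20a-5p was in the deposited table. MiR-20a-5p was at 3529 ± 903 RPM in PeM and 3396 ± 891 RPM in BPR, a log2 difference of 0.06 (limma, SE 0.21, adjusted p = 0.908). MiR-17-5p exceeded it by 9.22 to 25.4 times, with a median of 16.6 over the 12 birds. The log2 ratio was 3.91 ± 0.50 in PeM and 4.13 ± 0.34 in BPR (exact permutation test, p = 0.394). The levels of these cluster mates covaried weakly between birds (Pearson's r = 0.14, exact permutation p = 0.664, Spearman's rho = 0.20, exact permutation p = 0.575). Without PeM birds 1 and 5, r was 0.66 (exact permutation p = 0.0511). The sequences of both miRNAs are alike, and how the alignment divided reads between them is not given in the sources used here.

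MiR-181a-5p varied little in either breed. It ran from 22589 to 31689 RPM in PeM, with a median of 26952, and from 25556 to 35117 RPM in BPR, with a median of 29283. The means were 26835 ± 3043 RPM in PeM and 29531 ± 3614 RPM in BPR, and 2 PeM birds lay below all BPR birds. The log2 fold change was -0.14 (standard error 0.14, 95% interval -0.43 to 0.15, limma adjusted p = 0.627), and it was -0.089 without PeM bird 8 and -0.085 without BPR bird 1. This is the narrowest interval of the 6, and it allows a fold of 0.743 to 1.11. It rested on 82 to 289 reads in PeM and 149 to 387 reads in BPR.

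MiR-193a-3p ran from 4605 to 19530 RPM in PeM, with a median of 8913, and from 5219 to 14945 RPM in BPR, with a median of 12005. The highest PeM bird (5) and the lowest (16) both lay outside the BPR range. The means were 10311 ± 5116 RPM in PeM and 11370 ± 3623 RPM in BPR, with a log2 fold change of -0.20 (standard error 0.33, 95% interval -0.90 to 0.50, limma adjusted p = 0.804). MiR-199-5p showed the same outer birds. It ran from 2851 (bird 16) to 13572 RPM (bird 5) in PeM, with a median of 6746, and from 5139 to 11022 RPM in BPR, with a median of 8727. Its means were 7657 ± 3678 RPM in PeM and 8310 ± 2182 RPM in BPR, with a log2 fold change of -0.23 (standard error 0.32, 95% interval -0.91 to 0.46, limma adjusted p = 0.798). Without PeM bird 16 the log2 fold changes were 0.0044 and 0.028 for miR-193a-3p and miR-199-5p.

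The call on these 2 miRNAs depended on how depth was treated. With log2 of the recovered total as a covariate, chosen after seeing the data, miR-193a-3p was DE and lower in PeM, at -0.85 on the log2 scale (limma, SE 0.26, adjusted p = 0.0458). MiR-199-5p was also DE in that fit at -0.85 (limma, SE 0.26, adjusted p = 0.0458), beside 21.1% of all 38 miRNAs in the same fit. When PeM bird 16 and BPR bird 3 were left out of it, the log2 fold changes were -0.63 and -0.51 (limma adjusted p = 0.596 for each) and neither was DE. The total is also what RPM divides by, and log2(RPM) changed by -0.98 and -0.94 per doubling of it. With such slopes the covariate fit comes near to comparing read numbers. Mean reads were 43.5 in PeM and 77.3 in BPR for miR-193a-3p, and 31.7 and 58.5 for miR-199-5p. The fit thus cannot separate breed from depth for these miRNAs.

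MiR-148a-3p had the smallest log2 fold change of the 6. It ran from 4825 to 10166 RPM in PeM, with a median of 6129, and from 4336 to 10159 RPM in BPR, with a median of 6819. The means were 6805 ± 2022 RPM in PeM and 6704 ± 2017 RPM in BPR, with a log2 fold change of 0.03 (standard error 0.23, 95% interval -0.47 to 0.52, limma adjusted p = 0.965). MiR-22-3p, the rarest, ran from 823 to 5973 RPM in PeM, with a median of 2367, and from 1365 to 2698 RPM in BPR, with a median of 1955. PeM birds 4 and 5 were above all BPR birds, and PeM bird 10 was below all of them. The value of PeM bird 10 came from 4 reads (95% Wilson interval 320.2 to 2115 RPM) and that of PeM bird 4 from 21 reads (3910 to 9114 RPM), intervals that cover counting error only. The means were 2714 ± 1757 RPM in PeM and 1988 ± 432 RPM in BPR, with a log2 fold change of 0.23 (standard error 0.36, 95% interval -0.54 to 1.00, limma adjusted p = 0.798). Without PeM bird 4 the log2 fold change was -0.042.

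**Figure D2:**
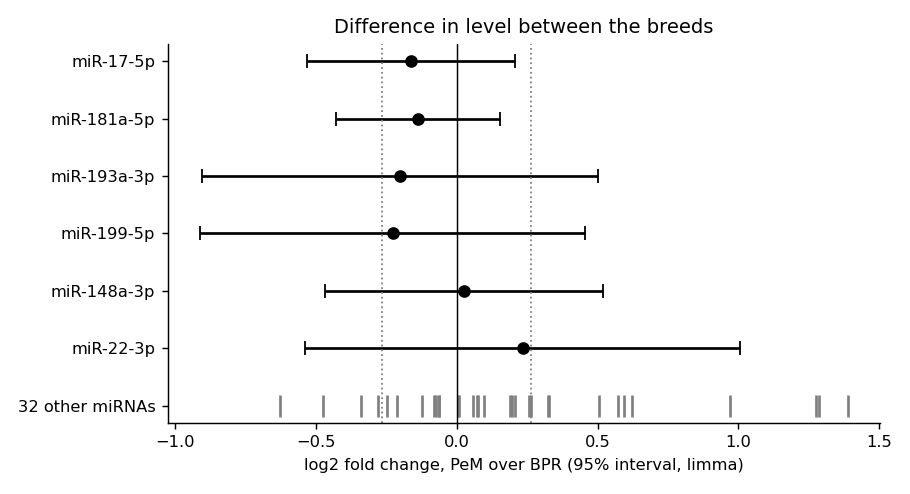
Log2 fold change of PeM over BPR (horizontal axis) for the 6 miRNAs, with 95% intervals from limma, above tick marks for the other 32 miRNAs. Dotted lines mark a fold change of 1.2 in either direction. All 6 intervals include 0, and the points lie between -0.23 and 0.23.

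Among the 6, 4 had a mean log2(RPM) lower in PeM and 2 had it higher, with a median log2 fold change of -0.15, against 0.07 over all 38 miRNAs. Ratios within a bird do not depend on the total that RPM divides by. Of the 15 log2 ratios between members, 0 differed between PeM and BPR (exact permutation tests, p = 0.346 to 0.933, adjusted p over the 703 pairs of listed miRNAs 0.642 to 0.969), where 25.2% of all 703 ratios had an unadjusted p under 0.05 and 4.98% an adjusted one. The widest difference was that of miR-199-5p to miR-22-3p, at 1.59 ± 1.06 in PeM and 2.05 ± 0.39 in BPR on the log2 scale. For context, a list of 8 other miRNAs of the table reported to act in myoblasts was chosen, which is not complete. It held miR-26a-5p, miR-24-3p, miR-125b-5p, miR-221-3p, miR-222a, miR-128-3p, miR-20a-5p and miR-206. Of these, 1 rose (miR-125b-5p), 1 fell (miR-206, a muscle-specific miRNA that promotes differentiation) and 6 were not DE, where 21.1% of all 38 were DE. Outside the list, the paper also ties miR-1, miR-146b, miR-10a and miR-133 to myoblasts or to myogenesis. The paper ties miR-221 to myoblasts too, without saying which form, whereas the list holds only miR-221-3p. MiR-146b-5p and miR-10a-5p were DE and higher in PeM, at log2 fold changes of 1.28 and 0.97 (limma adjusted p = 0.0198 and 0.0210). MiR-133a-5p, miR-133c-3p and miR-1a-3p were not DE. MiR-221-5p was DE and higher in PeM, at a log2 fold change of 1.27 (limma adjusted p = 0.00598). MiR-125b-5p, which limits insulin-like growth factor 2 in mouse myoblasts, was at 12684 ± 4514 RPM in PeM and 8185 ± 1807 RPM in BPR. MiR-206 was at 23407 ± 6017 RPM in PeM and 31760 ± 3523 RPM in BPR. Their log2 fold changes were 0.59 and -0.47, and neither passed after adjustment (limma adjusted p = 0.104 for each). MiR-206 also correlated with total reads, at r = 0.70 with breed means removed (exact permutation p = 0.00959, adjusted p over 38 miRNAs 0.096). Its difference between the breeds with depth as a covariate is not given here.

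The spread between birds was compared next, as the difference between PeM and BPR in the mean absolute deviation of log2(RPM) from the median of the breed. The spread was larger in PeM for 5 of the 6 miRNAs, where this held for 60.5% of the 38, and 0 of the 6 passed the exact permutation test (unadjusted p = 0.0606 to 0.948), where 10.5% of the 38 did. MiR-17-5p came closest. Its mean absolute deviation was 0.28 in PeM and 0.08 in BPR (exact permutation p = 0.0606, adjusted p = 0.452). Its SD of log2(RPM) was 0.37 in PeM and 0.10 in BPR, a ratio of 3.76 (the SD was larger in PeM for 4 of the 6, and for 55.3% of the 38), and the same permutation of the SD gave p = 0.0368 (adjusted p = 0.247, with 18.4% of the 38 under 0.05). Of the 38 miRNAs, miR-17-5p ranked 37 by SD in BPR, where only 1 miRNA varied less, and 19 in PeM. Sampling of reads by itself would produce an SD of 6.76% of the mean in PeM and 5.07% in BPR, against 26.9% and 6.98% observed. The observed spread was thus 3.98 times the counting error in PeM and 1.38 times in BPR.

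The spread exceeded counting error for 6 of 6 members in PeM (73.7% of the 38) and for 5 of 6 in BPR (78.9% of the 38). MiR-22-3p had an SD of 64.7% of its mean in PeM, where counting error gives 30.6%, and of 21.7% in BPR, below the 27.6% that counting error gives. Its mean absolute deviation was 0.64 in PeM and 0.21 in BPR on the log2 scale (exact permutation p = 0.208). After centring each bird on its median the same test gave an unadjusted p = 0.0108, and the share of the 38 in that setting is not given here. MiR-193a-3p and miR-199-5p were among the most variable of the 38 miRNAs in PeM (rank 7 and 5 by SD of log2 RPM). Their SDs were 49.6% and 48.0% of the mean in PeM, and 31.9% and 26.3% in BPR, 1.93 to 3.13 times the counting error. MiR-181a-5p varied by 11.3% in PeM and 12.2% in BPR, and its PeM spread was only 1.22 times the counting error. MiR-148a-3p varied by 29.7% in PeM and 30.1% in BPR. For these last 2 miRNAs the spread tests gave exact permutation p = 0.535 and 0.948.

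**Figure D3:**
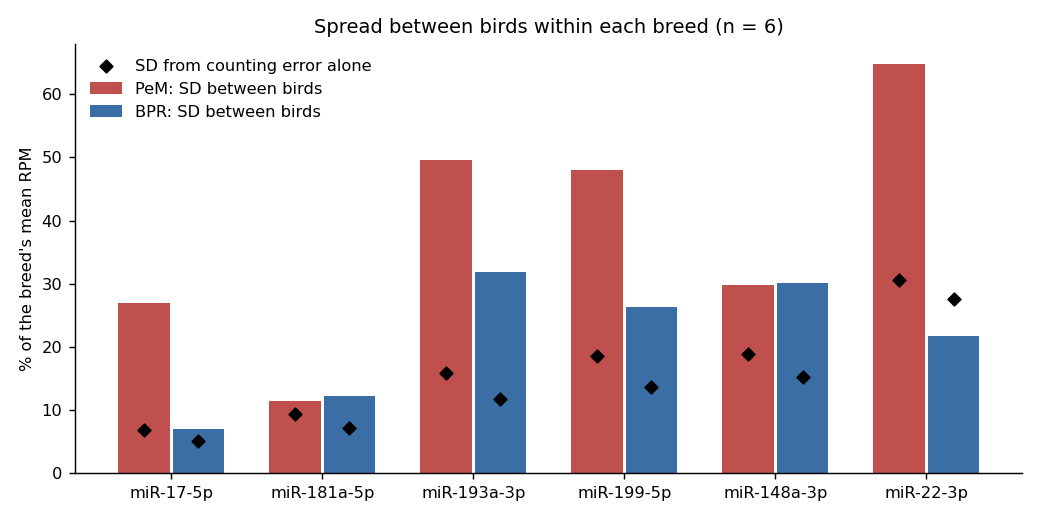
SD between birds as a percentage of the mean RPM of the breed (bars from 0, PeM in red left of BPR in blue, n = 6 birds each), with black diamonds for the SD that counting error of the recovered reads alone would give. The bar of miR-17-5p reaches 26.9% in PeM and 6.98% in BPR, and only the BPR bar of miR-22-3p ends below its diamond.

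Covariation between birds was measured with the breed means removed, so that it does not follow from a difference between breeds. Of the 15 pairs of members, 8 correlated positively and 7 negatively, with a median Pearson's r of 0.05 (0.02 over the 703 pairs of all 38 miRNAs). Only 1 of the 15 pairs had an exact permutation p under 0.05, where 10.1% of the 703 pairs did, and no pair of the 703 passed after adjustment (lowest adjusted p 0.0597). RPM values of a bird share 1 total, and the size of the coupling this brings was not tested.

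That pair was miR-193a-3p and miR-199-5p, at r = 0.88 (exact permutation p = 0.000775, adjusted p over 703 pairs 0.109) and Spearman's rho = 0.74 (exact permutation p = 0.0143, adjusted p = 0.359). No pair among the 38 miRNAs had a higher r. Within the breeds, whose birds also make up this pooled r, it was 0.89 in PeM (n = 6, exact permutation p = 0.0333) and 0.91 in BPR (n = 6, exact permutation p = 0.0111). PeM bird 16 and BPR bird 3 were farthest from the median log2(RPM) of miR-193a-3p over all birds, before breed means were removed. Without them, r was 0.76 (exact permutation p = 0.0267). In PeM, bird 5 was highest and bird 16 lowest in both miRNAs, and in BPR, bird 3 was lowest in both. Their genes are not neighbours in the gene table. The next pair was miR-148a-3p and miR-22-3p, at r = 0.52 (exact permutation p = 0.0872) and rho = 0.77 (exact permutation p = 0.00979, adjusted p = 0.359), with r = 0.95 in BPR (n = 6, exact permutation p = 0.0111) and 0.46 in PeM (n = 6, exact permutation p = 0.368). Without PeM bird 1 and BPR bird 6 its r was 0.56 (exact permutation p = 0.091).

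**Figure D4:**
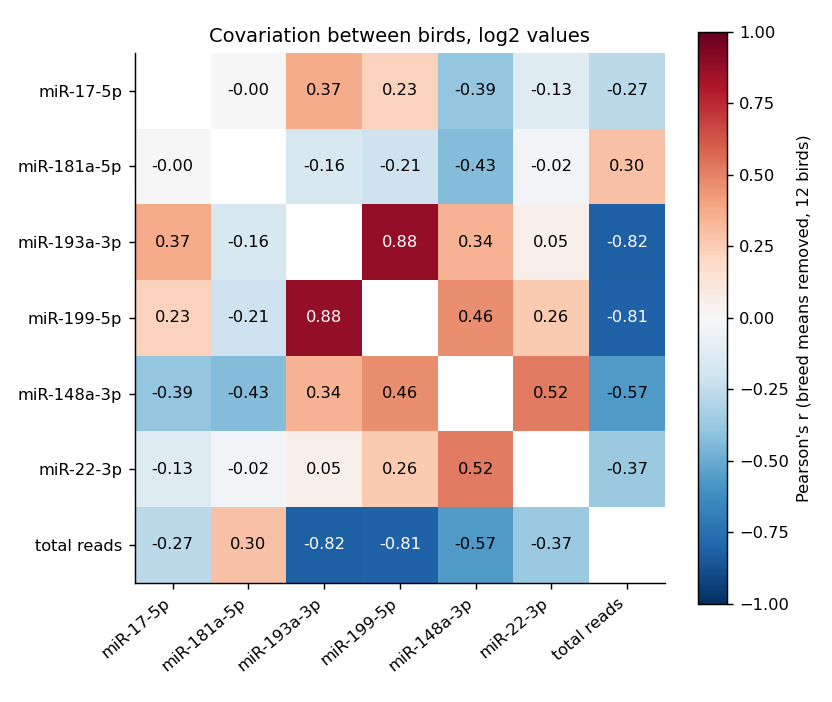
Pearson's r between the 6 miRNAs, and of each with the total reads of the library, over 12 birds with breed means removed (log2 values, red positive, blue negative). The pair of miR-193a-3p and miR-199-5p stands out at 0.88, and both correlate with total reads at -0.82 and -0.81.

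Depth moved with this pair. Against log2 of total reads, miR-193a-3p had r = -0.82 (exact permutation p = 0.00387, adjusted p over 38 miRNAs 0.0826) and rho = -0.60 (exact permutation p = 0.0619). MiR-199-5p had r = -0.81 (exact permutation p = 0.00435, adjusted p = 0.0826) and rho = -0.57 (exact permutation p = 0.0777). Within PeM, r with total reads was -0.78 for miR-193a-3p and -0.89 for miR-199-5p (n = 6, exact permutation p = 0.0972 and 0.0278), and within BPR it was -0.87 and -0.71 (n = 6, exact permutation p = 0.025 and 0.108). These were, over the 12 birds, the most negative values of the 38 miRNAs, and 13.2% of all had an unadjusted p under 0.05 and 0 passed after adjustment. MiR-148a-3p and miR-22-3p had r = -0.57 and -0.37, miR-17-5p -0.27 and miR-181a-5p 0.30 (exact permutation p = 0.07, 0.293, 0.497 and 0.367). The shallowest PeM library, bird 5 with 3021 reads, had the highest RPM of miR-193a-3p, miR-199-5p and miR-17-5p in PeM, and the deepest, bird 16 with 9120 reads, had the lowest of miR-193a-3p, miR-199-5p and miR-148a-3p. In read numbers, miR-199-5p varied only from 24 to 43 reads over the PeM libraries, and miR-193a-3p from 28 to 59. The relation was weaker without the deepest bird of each breed. Without PeM bird 16 and BPR bird 3, r with total reads was -0.43 for miR-193a-3p and -0.42 for miR-199-5p (exact permutation p = 0.219 and 0.236). Their removal also narrows the range of depth. With any 1 bird left out, r ran from -0.88 to -0.72 for miR-193a-3p and from -0.88 to -0.63 for miR-199-5p. With log2 of total reads regressed out, the r of miR-193a-3p with miR-199-5p was 0.65. Log2(RPM) of these miRNAs changed by -0.98 and -0.94 per doubling of the total. That r thus comes near to a correlation of their read numbers, and no share of all pairs is given for that setting. The part of depth in their covariation was not tested.

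**Figure D5:**
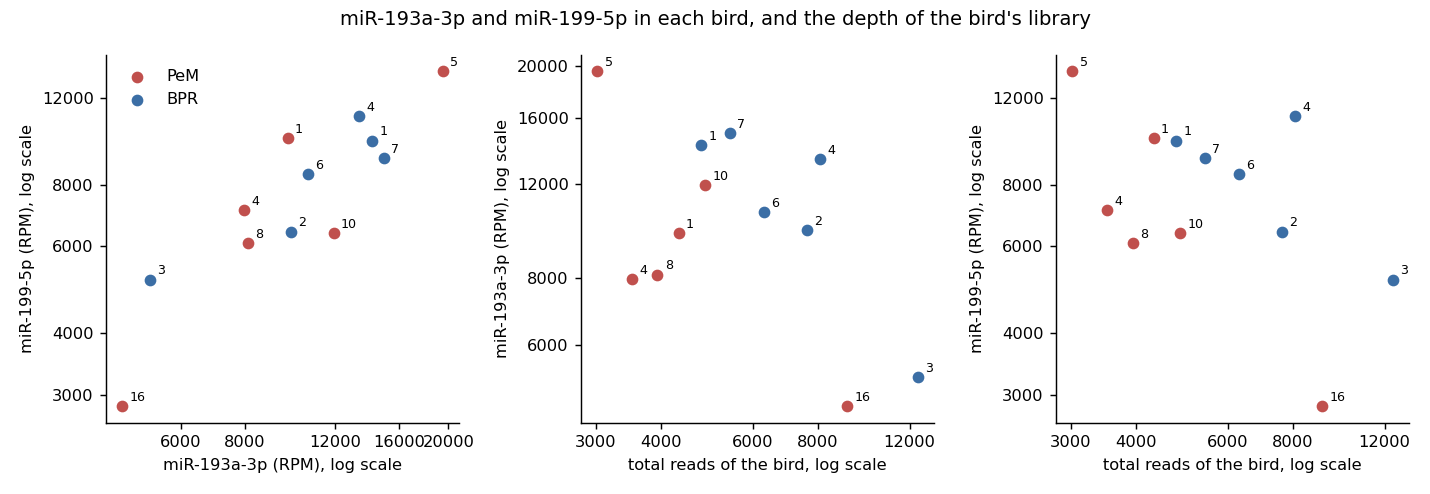
MiR-193a-3p against miR-199-5p (left), and each against the total reads of the library (middle and right), in PeM (red) and BPR (blue) with the bird number beside each point, on log axes. The miRNAs covary at r = 0.88 with breed means removed, and PeM bird 16 (9120 reads) and BPR bird 3 (12454 reads) are the lowest birds of their breeds in both.

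For each member, the other listed miRNAs of most and least similar pattern were taken by Pearson's r over the 12 birds with breed means removed. Of the 12 pairs so chosen, that of miR-181a-5p with miR-2954 is treated apart for the reason given with it. Exact permutation tests of the other 11 gave unadjusted p from 0.00115 to 0.0667, and none passed after adjustment over the 703 pairs (adjusted p 0.135 to 0.557). MiR-17-5p was most like miR-222a, at r = 0.78 (rho = 0.57), with 0.91 in PeM and 0.67 in BPR, and r = 0.77 without 2 birds. It was least like miR-1a-3p, the most abundant miRNA of the table, at r = -0.65 (rho = -0.54), which was -0.14 without 2 birds and turned to 0.47 after centring each bird on its median. MiR-193a-3p and miR-199-5p had the same nearest miRNA outside the set, miR-301b-3p, at r = 0.73 (rho = 0.46) and 0.86 (rho = 0.77), and without 2 birds each these were 0.37 and 0.73. MiR-301b-3p also correlated with total reads at r = -0.74 (exact permutation p = 0.0101, rho = -0.66). MiR-193a-3p was least like miR-146b-5p (r = -0.72, rho = -0.54, without 2 birds -0.78), with -0.96 in PeM and -0.18 in BPR. MiR-199-5p was least like miR-206 (r = -0.69, rho = -0.66, without 2 birds -0.56), with -0.69 in PeM and -0.72 in BPR. With total reads, r was 0.54 for miR-146b-5p and 0.70 for miR-206 (exact permutation p = 0.111 and 0.00959). These were the most positive values of the 38 miRNAs, and the part of depth in both pairs was not tested.

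MiR-148a-3p and miR-22-3p also shared their nearest miRNA, miR-16-5p, at r = 0.66 (rho = 0.63) and 0.64 (rho = 0.60), and were least like miR-221-3p (r = -0.60, rho = -0.51, without 2 birds -0.61) and miR-133a-5p (r = -0.71, rho = -0.43, without 2 birds -0.59). Without 2 birds, the r with miR-16-5p was 0.76 for miR-148a-3p and 0.39 for miR-22-3p. Several of these values came mainly from 1 breed. MiR-148a-3p with miR-221-3p had r = 0.02 in PeM and -0.89 in BPR. MiR-22-3p with miR-133a-5p had r = -0.95 in PeM and 0.06 in BPR. With miR-16-5p, r was 0.92 in PeM and 0.31 in BPR for miR-148a-3p, and 0.69 and 0.44 for miR-22-3p. With miR-451, the other erythroid marker, r was -0.045 for miR-148a-3p and -0.0024 for miR-22-3p (exact permutation p = 0.919 and 0.989). A part of blood content in these values was not tested. MiR-181a-5p was least like miR-10a-5p, at r = -0.58 (rho = -0.74) over the 12 birds, which was -0.34 without 2 birds and turned to 0.13 after centring on the median. The rule also chose miR-2954 for it by the r over 12 birds, but miR-2954 in PeM (508 to 2317 RPM) fell into a low and a high set of 3 birds each, so that r is not given and no likeness is read from it. Within BPR, miR-181a-5p and miR-2954 had r = 0.69 (n = 6, exact permutation p = 0.106).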

How the data were processed

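Small RNA of breast muscle from 12 birds (6 PeM, 6 BPR, each library 1 bird) was sequenced with 50-base reads. Per the methods, the authors trimmed adapters, used ArrayStar to align reads to miRBase's mature miRNAs of chicken, scaled them to RPM and dropped miRNAs with an average under 5 reads in both breeds. The processing notes name galGal5 and FastQC. The deposited table holds RPM for 38 miRNAs in each bird, the authors' mean RPM per breed, a log2 mean, a log2 fold change and a p-value of the authors. These means and comparison columns were not used.

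The 6 members and all lists were chosen with earlier results of these data known. Log2(RPM) was fitted by breed with limma 3.58.1 (R 4.3.3) over all 38 miRNAs without a pseudocount, since no value was 0, and p-values were adjusted by Benjamini-Hochberg. DE meant unadjusted p under 0.05 and fold change over 1.2. Spread, ratios and correlations were tested by exact two-sided permutation over birds (Python 3.11.15, scipy 1.17.1): 924 assignments, smallest p 0.0022, or 518400 pairings within breeds. For spread, the values permuted were deviations from the median (for the SD, the mean) of the bird's own breed, so those p-values are approximate. A total of reads per bird was recovered as the total from 1000 to 20000 at which most values were whole within 0.005, and 3 reads equalled 329 to 993 RPM in PeM and 240.9 to 627 RPM in BPR. Intervals (Wilson, 95%) and counting errors cover counting only, since PCR copies were not marked. P-values judge differences and correlations against the variation between these birds. Scripts were tested on simulated data. Named miRNAs were the 6 and their neighbours in rank and in the RefSeq gene table (GRCg7b, names only, all 38 matched). Also named were the most and least correlated miRNA of each and the DE miRNAs of the list of 8. MiRNAs that the paper ties to myoblasts or myogenesis were named too. Alternatives covered the pseudocount, a minimum of 2000 RPM, scaling, a replicate block, each bird left out and, added after seeing the data, depth, limma-voom and a fit on the birds of the block without it.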

Additional observations from a re-analysis of the deposited data

Results flagged for a closer look

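In groups of 6 birds, the gap of the highest or lowest bird to the next was compared with Dixon's critical value of 0.625 of the range. Of 16 groups examined, 2 were past it, where chance gives about 0.8. Total reads were 9120 in PeM bird 16, whereas the remaining PeM birds had 3021 to 4858. The 6 miRNAs together held 14.5% of the reads in PeM bird 5, and 9.57% to 10.9% in the rest of the PeM birds. PeM bird 5 had the highest RPM of miR-17-5p, miR-193a-3p and miR-199-5p in PeM. It also had the lowest total of reads (3021), whose part in this share was not tested. No single miRNA of the 6 was past the critical value in either breed.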

How the results depend on the processing

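The numbers 1 and 4 occur in both breeds but name different birds, and the deviations of same-numbered birds correlated at 0.03 and -0.17 over the 38 miRNAs. Whether same-numbered birds share more than a number was not tested. A replicate block could be fitted only on those 2 birds of each breed. It gave 3 of the 6 as DE (log2 fold changes -0.65 for miR-193a-3p, 0.65 for miR-148a-3p and 1.06 for miR-22-3p), among 11 of the 38, against 0 of the 6 among 8 of the 38 with all birds. The same 4 birds without the block, a fit added after seeing the data, also gave 3 (miR-17-5p at -0.62, miR-193a-3p and miR-148a-3p) among 10 of the 38. The count was thus 3 with and without the block, though the miRNAs called were not all the same, and the cause of the rise was not tested. With depth as a covariate 2 were DE, among 8 of the 38. Leaving out each bird gave 0, among 7 to 10 of the 38. With a bird left out, log2 fold changes ran from -0.27 to -0.075 for miR-17-5p, from -0.19 to -0.085 for miR-181a-5p, from -0.41 to 0.0044 for miR-193a-3p and from -0.42 to 0.028 for miR-199-5p, above 0 only without PeM bird 16. For miR-148a-3p the value was -0.021 with birds centred on their medians, -0.10 to 0.16 with a bird left out, -0.00051 without the deepest bird of each breed, -0.27 with depth as a covariate and -0.12 with both. For miR-22-3p it was -0.042 to 0.53 with a bird left out, below 0 only without PeM bird 4, -0.094 with depth as a covariate and -0.66 without the deepest birds as well. Spread differed in 1 of 6 after centring (miR-22-3p, exact permutation p = 0.0108), after rescaling without the 2 most abundant miRNAs (miR-17-5p, p = 0.0498) and by SD (miR-17-5p, p = 0.0368), and in 0 to 1 with a bird left out. These p-values are unadjusted. By SD 18.4% of the 38 were under 0.05, against 10.5% by the main test, and the shares in the other settings are not given here. The difference in spread changed sign for miR-181a-5p (0.075 centred, 0.0082 rescaled, -0.064 to 0.0079 with a bird left out), miR-193a-3p (-0.014 centred, -0.065 to 0.28 with a bird left out) and miR-148a-3p (-0.021 by SD, -0.37 percentage points by coefficient of variation, -0.089 to 0.083 with a bird left out). Of the 15 pairs of members, 2 were past 0.05 after centring (14.8% of the 703 pairs), by Spearman's rho (8.68%) and without the 2 farthest birds (8.96%). With a bird left out, 1 to 2 were, and the share of the 703 pairs there is not given here. After centring, r was -0.38 for miR-199-5p with miR-148a-3p, 0.47 for miR-17-5p with miR-1a-3p and 0.13 for miR-181a-5p with miR-10a-5p. For miR-17-5p with miR-20a-5p it was -0.059 to 0.39 with a bird left out. With total reads, r was 0.36 for miR-17-5p centred, and for miR-181a-5p -0.33 without the deepest birds and -0.078 to 0.63 with a bird left out. Among all 38 miRNAs, 7 were DE higher and 1 lower, against 6 and 0 after centring (median shift -0.046), and 5 were DE at a fold change of 1.5. The causes were not tested. On the recovered reads limma-voom was run, and a model of the counts themselves was not. Reads limit miR-22-3p most, at 4 to 21 reads in PeM and 9 to 17 in BPR.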
